A study of Mus musculus with 8 samples.

Results

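The genes described here are 36 markers of macrophages and other leukocytes and mediators of inflammation, measured in outer medullary collecting ducts of mice on a high-salt or a normal-salt diet. They were chosen by symbol, and all 36 were found among the 55291 gene symbols of the deposited tables. By role they were 6 pan-leukocyte genes, 12 myeloid receptor, adaptor and marker genes, 3 subunits of complement C1q, 4 MHC class II genes, 2 macrophage growth factors, 6 cytokines and chemokines, and 3 genes of NF-kB feedback and adhesion.

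The outer medullary collecting duct is a late segment of the nephron's drainage, lined by principal cells for sodium and water transport and by intercalated cells for acid and base. The high-salt group was wild-type C57BL/6J mice, an inbred strain, fed 3% salt for 3 days, and the normal-salt group was wild-type C57BL/6J mice fed 0.3% salt for the same 3 days. Kidneys of all animals were digested with liberase, ducts were dissected by hand, and a pool of 100 to 120 tubules from 1 mouse made each library, with 4 libraries per diet. The column numbers in the tables name the libraries, 2, 3, 4 and 6 under high salt and 1, 2, 3 and 6 under normal salt, and values are given in that order.

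Resident macrophages of the kidney lie in the interstitium around the tubules and depend on signals through the receptor Csf1r, whose ligands, Csf1 and Il34, are made by tubule cells among others. NF-kB is the transcription factor that inflammatory signals release. It induces its own inhibitors, such as Nfkbia and Tnfaip3, along with chemokines and adhesion molecules that draw in leukocytes.

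Library totals were 69.2 to 87.7 M estimated counts under high salt and 64.8 to 94.15 M under normal salt, so that 1 count was worth 0.0106 to 0.0154 CPM (counts scaled to library size). Collecting duct markers had summed levels of 32935 to 37946 CPM in the high-salt libraries and 25345 to 30616 CPM in the normal-salt libraries, a sum dominated by the water channels Aqp2 (means of 15689 CPM under high salt and 9979 CPM under normal salt) and Aqp3 (4328 CPM under high salt and 2688 CPM under normal salt). Of the 16 markers 10 had a lower and 6 a higher mean under high salt (median log2 fold change -0.04), so the sum does not stand for all of them. Scnn1a, a pore-forming chain of the sodium channel ENaC, was the 1 gene called in any list: it fell to 485 ± 125 CPM under high salt, against 1198 ± 135 CPM under normal salt (SD, n = 4 each; log2 fold change -1.33, limma adjusted p = 0.026). The adjusted p was 0.0216 without normal-salt library 1, and no gene was called without high-salt library 4 or normal-salt library 3. Lymphocyte markers summed to 3.28 to 5.72 CPM under high salt and 3.07 to 5.54 CPM under normal salt, and the T cell marker Cd3e was at 0.101 CPM at most. The neutrophil markers summed to 0.564 CPM at most. Markers of the thick ascending limb, a neighbouring tubule segment, summed to 84.5, 79.4, 393 and 2394 CPM under high salt and 1838, 803, 540 and 1278 CPM under normal salt, with a wide spread within each diet. Normal-salt library 1 stood apart. It held 302 CPM of fibroblast and pericyte markers, against 54.6 to 144 CPM in the high-salt libraries and 37.1 to 55.9 CPM in the other normal-salt libraries, and the tests of the 17 genes below are given with and without it.

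The comparison asked which of these transcripts differ between mice on high and normal salt. Of the 36 genes, 17 had at least 1 CPM in at least 4 of the 8 libraries and were tested, and 19 did not. None of the 17 passed limma's test at an adjusted p under 0.05 (0 of 17, where 0.0821% of all 13401 genes tested were called), nor did any without normal-salt library 1 (0 of 17, where 0.373% of all genes were called). An unadjusted p under 0.05 was reached by 3, Ptprc, Nfkbia and Tnfaip3, all with higher means under high salt. Of all genes 10.3% reached it (5.95% with a higher mean log2 level). The diets did not overlap in 1 of the 17, Ptprc, against 6.4% of all genes tested (3.66% with higher values under high salt). Without normal-salt library 1, Ptprc alone of the 17 had an unadjusted p under 0.05 (13.5% of all genes, 7.81% with a higher mean log2 level). It alone did not overlap (12.5% of all genes, 7.14% with higher values). The 17 had a median log2 fold change of -0.38 against 0.01 for all genes tested, with 13 lower and 4 higher, and without normal-salt library 1 a median of -0.08 against 0.01, with 9 lower and 8 higher.

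**Figure D1:**
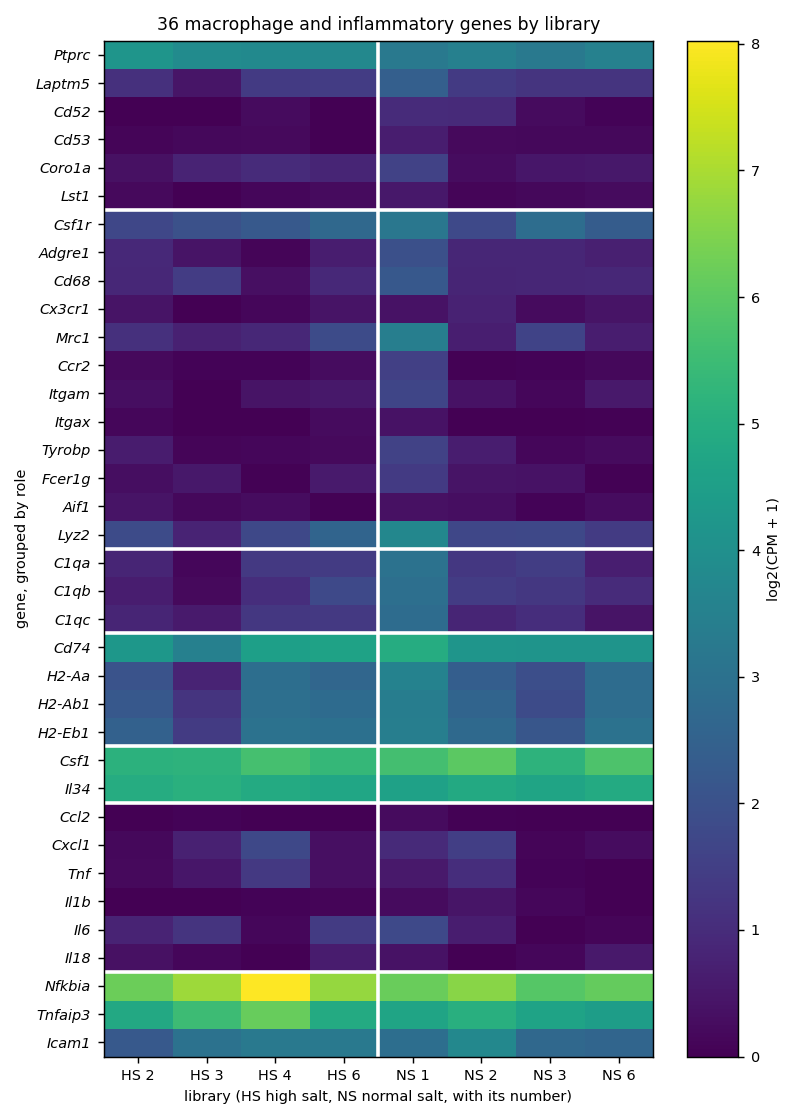
Level of each of the 36 genes, as log2(CPM + 1), in the 4 high-salt (HS) and 4 normal-salt (NS) libraries, with white lines between roles and between diets. Nfkbia, Csf1, Tnfaip3, Il34 and Cd74 are bright in all libraries, the cytokines have 2.42 CPM at most, and 13 of the 15 myeloid and C1q genes are brightest in NS 1 (all but Cx3cr1 and Aif1).

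Levels between genes were compared per length, in TPM. Nfkbia was the most abundant at a mean of 123 ± 74.7 TPM (SD, n = 8 libraries), above 90.6% of all genes tested. Il34 followed at 38.2 ± 6.38 TPM, Cd74 at 26.5 ± 6.91 TPM, Csf1 at 21.3 ± 5.29 TPM and Tnfaip3 at 12.8 ± 6.00 TPM, and the libraries of neighbours among these 4 overlapped, whereas the lowest library of Nfkbia (68.6 TPM) was above the highest of Il34 (45.4 TPM). The MHC class II chains H2-Eb1, H2-Ab1 and H2-Aa had 10.1, 7.77 and 7.76 TPM, then came Lyz2, Icam1 and Ptprc with 4.71, 4.57 and 4.42 TPM. The 3 C1q subunits lay between 2.19 and 3.11 TPM. Only 5 of the 36 were at 10 CPM or more in all 8 libraries, 8 were under 1 CPM in all 8, and 9 were listed at 0 in at least 1 library.

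Ptprc encodes CD45, the tyrosine phosphatase on the surface of all nucleated blood-derived cells. It was measured at 17.3, 13.5, 13.0 and 12.5 CPM in the high-salt libraries, against 8.48, 10.2, 8.53 and 10.5 CPM in the normal-salt libraries, with means of 14.1 ± 2.18 CPM under high salt and 9.42 ± 1.06 CPM under normal salt (SD, n = 4 each). Every high-salt library was above every normal-salt library, and the nearest values of the diets were 12.5 and 10.5 CPM. The log2 fold change on log2(CPM + 1) was 0.53 (SE 0.14, limma unadjusted p = 0.00309, adjusted p = 0.184), and 0.48 without normal-salt library 1 (SE 0.14, adjusted p = 0.188). In TPM the libraries did not overlap either, with 6.57, 5.14, 4.90 and 4.78 TPM under high salt and 2.64, 3.92, 3.20 and 4.20 TPM under normal salt (adjusted p = 0.436 with limma). Between 550 and 1514 estimated counts per library lay behind these values. In GENCODE M21 on mm10 the gene spans chr1:138062861-138175708 (minus strand). Another annotated gene of the same strand, A130071D04Rik, overlaps it and had 0.170 CPM at most.

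The other pan-leukocyte genes had lower mean levels per length (0.170 to 1.34 TPM), and none had higher values in every high-salt library. Laptm5, a lysosomal membrane protein of blood-derived cells, had 1.16, 0.359, 1.60 and 1.69 CPM under high salt and 4.41, 1.58, 1.31 and 1.29 CPM under normal salt (log2 fold change -0.46, SE 0.32, limma adjusted p = 0.683; -0.17 and adjusted p = 0.827 without normal-salt library 1). The highest value of Laptm5 was in normal-salt library 1, the library in which Ptprc was lowest. Coro1a, an actin-binding protein of leukocytes, had 0.296 to 0.990 CPM under high salt and 0.199 to 1.99 CPM under normal salt, but it overlaps Bola2 on the opposite strand (16.5 to 36.8 CPM), so its reads are uncertain. Cd53, a leukocyte tetraspanin, and Lst1, a myeloid membrane protein, had 0.571 and 0.432 CPM in normal-salt library 1 and 0.164 and 0.173 CPM at most elsewhere. Cd52, a small surface glycoprotein of lymphocytes and monocytes, was listed at 0 in 3 of 4 high-salt libraries and had 0.176 CPM in high-salt library 4, against 1.00, 0.937, 0.170 and 0.0507 CPM under normal salt. It was not tested at the level set, and with no filter on low values limma gave it an unadjusted p of 0.0494 and an adjusted p of 0.78 (6.37% of the 30343 genes then tested had an unadjusted p under 0.05). Cd52 overlaps Crybg2 on the opposite strand, so its reads are uncertain too. The part of leukocyte number in the Ptprc values was not tested. In bulk RNA, a change in the number of cells of a type and a change in RNA per cell cannot be told apart.

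**Figure D2:**
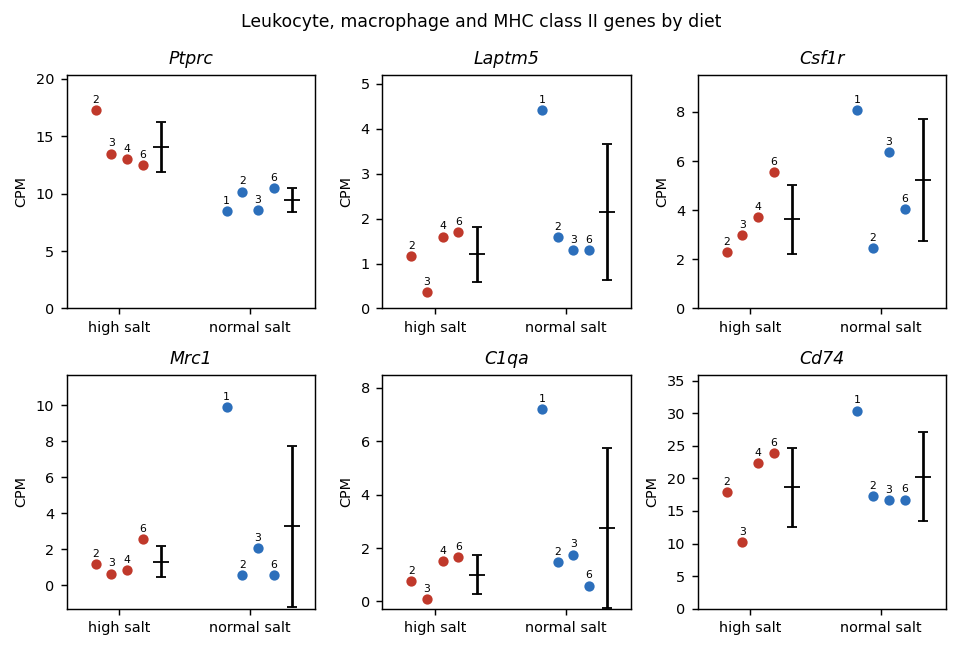
Level in CPM of Ptprc, Laptm5, Csf1r, Mrc1, C1qa and Cd74 in each library (points, labelled by library number) under high and normal salt, with the mean and SD of the 4 libraries beside them. Ptprc is the panel without overlap between the diets, and in the other 5 panels the highest point is normal-salt library 1.

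Among the myeloid genes, Csf1r, the receptor for Csf1 and Il34, had 2.28, 2.99, 3.71 and 5.55 CPM under high salt and 8.07, 2.45, 6.37 and 4.06 CPM under normal salt. The diets overlapped, and the log2 fold change was -0.38 (SE 0.31, limma adjusted p = 0.732), or -0.17 without normal-salt library 1 (adjusted p = 0.846). In TPM the highest library of Csf1r was normal-salt library 3 (4.22 TPM), above normal-salt library 1 (2.85 TPM). Csf1r overlaps Hmgxb3 on the opposite strand, which had 40.6 to 63.1 CPM, and no source used here states whether counting used strand, so its reads are uncertain. Mrc1, the mannose receptor of tissue macrophages, had 1.19, 0.652, 0.854 and 2.56 CPM under high salt and 9.90, 0.586, 2.08 and 0.571 CPM under normal salt. Lyz2, the lysozyme of macrophages and neutrophils, had 2.53, 0.759, 2.32 and 5.02 CPM under high salt and 12.1, 2.25, 2.30 and 1.61 CPM under normal salt. In both, normal-salt library 1 was highest and the other 7 libraries overlapped. The log2 fold change of Mrc1 was -0.45 (SE 0.55, limma adjusted p = 0.827) and 0.16 without that library (adjusted p = 0.871), and that of Lyz2 was -0.39 (SE 0.51, adjusted p = 0.835) and 0.14 without it (adjusted p = 0.902). The near-identical Lyz1 had 0.373 CPM at most, and reads may be split between the pair.

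The remaining 9 myeloid genes were not tested. Adgre1, the F4/80 antigen of mouse macrophages, had 0.901, 0.346, 0.0678 and 0.578 CPM under high salt and 2.90, 0.831, 0.807 and 0.634 CPM under normal salt. Its order changed with the unit: in TPM it had 0.487, 1.23, 0.036 and 1.19 TPM under high salt and 1.28, 0.435, 0.43 and 0.885 TPM under normal salt, so that normal-salt library 1 no longer stood clear of high-salt libraries 3 and 6. Cd68, a lysosomal glycoprotein of macrophages, had 0.866, 1.68, 0.244 and 0.882 CPM under high salt and 3.59, 0.761, 0.818 and 0.862 CPM under normal salt. Ccr2, the receptor of monocytes for Ccl2, had 0.0532 to 0.202 CPM under high salt and 1.90 CPM in normal-salt library 1, with 0.0351 to 0.118 CPM in the other normal-salt libraries. The signalling adaptor Tyrobp and its partner Fcer1g reached 2.01 and 1.59 CPM in normal-salt library 1 and 0.550 and 0.506 CPM at most elsewhere. The integrin chains Itgam and Itgax reached 2.21 and 0.309 CPM in that library and 0.469 and 0.173 CPM at most in the rest. Itgam overlaps Gm49368 on the same strand, so its reads are uncertain. Cx3cr1, the fractalkine receptor, and Aif1, a calcium-binding protein of macrophages, were the 2 myeloid genes not highest in normal-salt library 1, at 0.691 CPM in normal-salt library 2 and 0.353 CPM in high-salt library 2. Cx3cr1 overlaps several annotated genes on both strands, so its reads are uncertain too.

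The subunits of C1q, which starts the classical complement pathway and is made largely by macrophages, shared much of their order across libraries. C1qa had 0.775, 0.0932, 1.50 and 1.65 CPM under high salt and 7.19, 1.46, 1.75 and 0.596 CPM under normal salt. C1qb had 0.559, 0.146, 1.07 and 2.38 CPM under high salt and 6.66, 1.69, 1.48 and 1.00 CPM under normal salt. C1qc had 0.775, 0.506, 1.45 and 1.50 CPM under high salt and 6.17, 0.773, 1.07 and 0.342 CPM under normal salt. In all 3, normal-salt library 1 was highest, high-salt library 6 was the highest of its diet and high-salt library 3 the lowest of its diet. Summed C1q was 0.745 to 5.54 CPM under high salt and 1.94 to 20.0 CPM under normal salt, or 1.94 to 4.30 CPM without normal-salt library 1. The log2 fold changes were -0.70, -0.76 and -0.28 (limma adjusted p = 0.663, 0.6 and 0.881), and -0.22, -0.33 and 0.24 without that library (adjusted p = 0.82, 0.718 and 0.736). The 3 genes are neighbours at chr4:136880129-136898803, all on the minus strand.

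Of the 17 members tested, 11 had their highest CPM in normal-salt library 1, and 6 were there at more than 2 times the next library. Over all genes tested, 25.3% had their highest CPM in that library, and 51 of 13401 genes were at more than 2 times the next. In TPM the counts were 10 of 17, where 11.6% of all genes tested had their highest TPM in that library, and 5 at more than 2 times the next, against 31 of 13401. With the low genes that were not tested included, for which these shares are no background, 22 of the 25 leukocyte, myeloid, C1q and MHC class II genes had their highest CPM there, and 20 of 25 their highest TPM. In the same library 8 of 10 fibroblast and pericyte markers were highest. The part of interstitial tissue carried along with the tubules in these values was not tested.

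**Figure D3:**
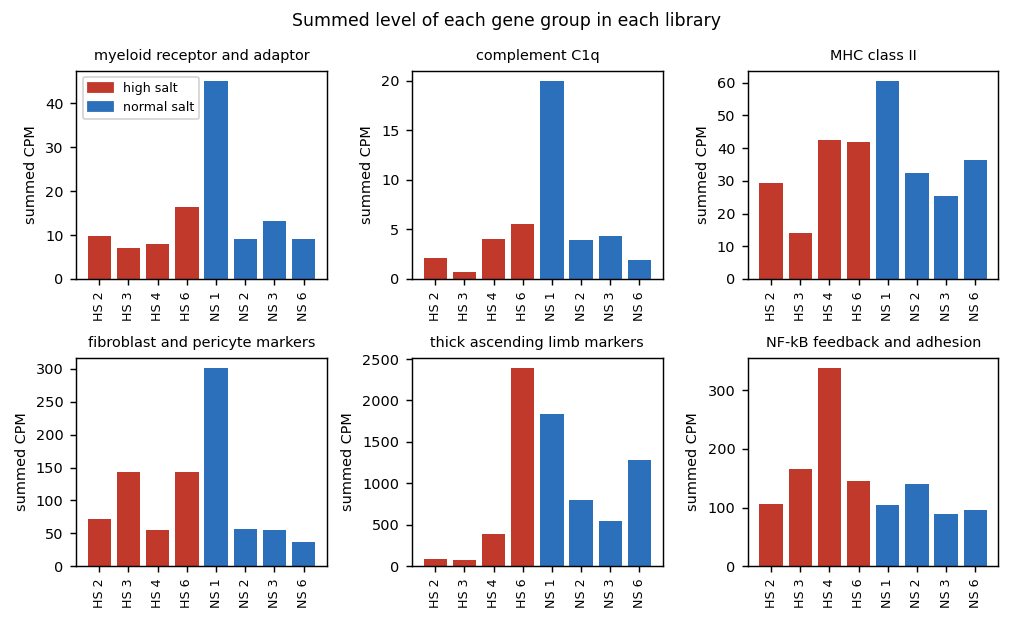
Summed CPM of 3 groups of leukocyte genes, of fibroblast and pericyte markers, of thick ascending limb markers and of the NF-kB feedback and adhesion genes in each high-salt (HS) and normal-salt (NS) library. The myeloid (45.2 CPM), C1q (20.0 CPM), MHC class II (60.7 CPM) and fibroblast (302 CPM) sums are highest in NS 1, the thick ascending limb sum in HS 6 and the NF-kB sum in HS 4.

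MHC class II molecules present peptides to helper T cells, and Cd74 is the invariant chain that guides them through the cell. Cd74 had 17.9, 10.3, 22.3 and 23.9 CPM under high salt and 30.4, 17.3, 16.7 and 16.7 CPM under normal salt (log2 fold change -0.13, SE 0.26, limma adjusted p = 0.904). Without normal-salt library 1 the fold change was 0.07 (adjusted p = 0.93), and the 4 high-salt libraries then spread from below to above the 3 left, which lay close together. H2-Aa had 3.18, 0.759, 6.39 and 5.33 CPM under high salt and 10.9, 4.32, 2.83 and 6.11 CPM under normal salt. H2-Eb1 had 4.57, 1.62, 7.17 and 6.78 CPM under high salt and 9.89, 5.75, 3.42 and 7.10 CPM under normal salt, and H2-Ab1 had 1.29 to 6.70 CPM under high salt and 2.56 to 9.50 CPM under normal salt. The alpha and beta chains thus shared an order, with normal-salt library 1 highest and high-salt library 3 lowest, and the diets overlapped in each. Their log2 fold changes were -0.58, -0.38 and -0.38 for H2-Aa, H2-Eb1 and H2-Ab1 (limma adjusted p = 0.72, 0.782 and 0.796), and -0.29, -0.17 and -0.14 without normal-salt library 1 (adjusted p = 0.826, 0.88 and 0.912). Leaving out high-salt library 3 moved them further, to -0.15, -0.02 and -0.02 (limma adjusted p = 0.943, 0.992 and 0.991). In TPM the fold change of H2-Eb1 was -0.775 (limma adjusted p = 0.672). Of 10 further genes of the class II pathway 6 were tested and 0 were called. Rfxank, a subunit of the RFX factor that binds class II promoters, had 18.7 ± 0.831 CPM under high salt and 21.9 ± 1.21 CPM under normal salt (SD, n = 4 each; log2 fold change -0.22, limma adjusted p = 0.461). The diets did not overlap in Rfxank, 1 of the 6 tested, where 6.4% of all genes tested did not overlap (368 of 13401 with lower values under high salt). Rfxap, another subunit, had 12.5 ± 2.18 CPM under high salt and 16.5 ± 3.53 CPM under normal salt (adjusted p = 0.495).

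The growth factors of macrophages were well measured in the ducts. Csf1, colony stimulating factor 1, had 34.5, 35.3, 49.7 and 39.3 CPM under high salt and 48.8, 62.5, 35.2 and 54.3 CPM under normal salt. The means were 39.7 ± 7.0 CPM under high salt and 50.2 ± 11.5 CPM under normal salt (SD, n = 4 each). Normal-salt library 3 lay among the high-salt values, and high-salt library 4 among the normal-salt values. The log2 fold change was -0.32 (SE 0.17, limma adjusted p = 0.577) and -0.32 without normal-salt library 1 (SE 0.19, adjusted p = 0.496). Il34, the second ligand of Csf1r, had 30.6, 33.5, 29.2 and 26.0 CPM under high salt and 22.9, 28.4, 24.9 and 29.1 CPM under normal salt. Its spread was narrow, with overlap between the diets (log2 fold change 0.18, SE 0.12, limma adjusted p = 0.66; 0.11 and adjusted p = 0.699 without normal-salt library 1). The antisense gene Gm15895 overlaps Il34 and had 2.00 to 4.65 CPM.

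The 6 cytokines and chemokines had 2.42 CPM at most in any library and none was tested. Cxcl1, a chemokine for neutrophils, had 0.137, 0.652, 2.35 and 0.260 CPM under high salt and 0.941, 1.83, 0.0850 and 0.190 CPM under normal salt. Tnf, tumour necrosis factor, had 0.148, 0.399, 1.50 and 0.260 CPM under high salt and 0.478, 1.09, 0.0531 and 0 CPM under normal salt. In both genes high-salt library 4 was highest and normal-salt library 2 next, whatever the diet. Il6, interleukin 6, had 0.730, 1.33, 0.108 and 1.60 CPM under high salt and 2.42, 0.574, 0 and 0.0761 CPM under normal salt, an order unlike that of Tnf. Il1b, interleukin 1 beta, had 0, 0.0133, 0.0542 and 0.0723 CPM under high salt and 0.170, 0.375, 0.0956 and 0 CPM under normal salt. Il18, an interleukin 1 relative, had 0.296, 0.106, 0.0136 and 0.520 CPM under high salt and 0.309, 0.0117, 0.106 and 0.469 CPM under normal salt, with overlap over most of the range. Ccl2, the monocyte chemokine, had 0, 0.0665, 0 and 0.0145 CPM under high salt and 0.170, 0.0234, 0 and 0.0127 CPM under normal salt. A count of 3 was worth 0.0319 to 0.0463 CPM per library, so that several of these values rest on a few counts.

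Promoters are shown for members that hold a core of the NF-kB site, so that Nfkbia, Tnfaip3, Cxcl1 and Csf1 can be set side by side. RefSeq windows on GRCm38.p6 were matched by symbol for 26 of the 36 genes (29 windows), and the 250 bases before each start were searched on both strands for GGG and TTTCC with any 2 bases between them. It was found in 5 of the 29 windows (17.2%), those of Nfkbia, Cxcl1, Csf1 and Il6 and 1 of the 2 of Tnfaip3, and in 1.41% of all 32851 windows of the same length. The letters GAGGAAGT, a core of the site of the myeloid factor PU.1, were found in 1 of the 29 windows, that of C1qc, and in 2.44% of all windows. A match describes the letters and is no evidence of binding. The members include genes chosen for their part in NF-kB feedback, so 17.2% beside 1.41% is no test of enrichment. The 4 sequences below run 5′ to 3′ along the gene and end at the base before its RefSeq start, with the matches in capitals (read as their reverse complement where they begin GGAAA). They lie at chr12:55492648-55492897 (minus strand), chr10:19015411-19015660 (minus), chr5:90890995-90891244 (plus) and chr3:107760470-107760719 (minus). In GENCODE M21 Tnfaip3 starts further upstream, at chr10:19015657, so nearly all of its window, the match included, lies inside the gene there.
Nfkbia: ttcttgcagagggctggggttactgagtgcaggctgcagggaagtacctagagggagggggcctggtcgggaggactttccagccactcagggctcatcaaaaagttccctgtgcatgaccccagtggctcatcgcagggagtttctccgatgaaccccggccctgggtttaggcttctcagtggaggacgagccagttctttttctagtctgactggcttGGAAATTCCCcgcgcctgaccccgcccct
Tnfaip3: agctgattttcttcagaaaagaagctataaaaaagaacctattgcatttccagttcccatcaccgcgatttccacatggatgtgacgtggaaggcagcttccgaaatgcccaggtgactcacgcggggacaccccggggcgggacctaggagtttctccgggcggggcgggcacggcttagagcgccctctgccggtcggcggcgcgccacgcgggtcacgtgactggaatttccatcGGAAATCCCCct
Cxcl1: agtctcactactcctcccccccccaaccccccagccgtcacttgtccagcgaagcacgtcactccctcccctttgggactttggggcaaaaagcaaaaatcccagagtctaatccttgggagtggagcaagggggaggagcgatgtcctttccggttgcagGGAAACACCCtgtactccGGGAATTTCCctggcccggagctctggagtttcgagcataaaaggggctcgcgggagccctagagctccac
Csf1: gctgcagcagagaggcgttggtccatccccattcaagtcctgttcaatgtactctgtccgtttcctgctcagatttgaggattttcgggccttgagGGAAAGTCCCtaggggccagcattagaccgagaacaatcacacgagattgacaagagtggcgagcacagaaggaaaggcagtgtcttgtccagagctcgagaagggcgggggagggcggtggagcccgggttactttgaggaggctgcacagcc
The first base of the match lies 29 bases before the RefSeq start in Nfkbia, 12 in Tnfaip3 and 154 in Csf1. Cxcl1 holds 2 matches, at 89 and 71 bases before the RefSeq start.

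Nfkbia encodes the inhibitor that holds NF-kB in the cytoplasm and is itself a target of NF-kB. It had 74.2, 114, 259 and 107 CPM under high salt and 72.6, 95.1, 59.6 and 69.2 CPM under normal salt. High-salt library 4 was above every other library, and high-salt library 2 lay among the normal-salt values. The means were 139 ± 82.4 CPM under high salt and 74.1 ± 15.03 CPM under normal salt (SD, n = 4 each). Tnfaip3, the ubiquitin-editing enzyme A20 that ends NF-kB signalling, had 27.5, 44.8, 70.4 and 29.2 CPM under high salt and 24.9, 32.5, 24.2 and 21.1 CPM under normal salt, with means of 43.0 ± 19.9 CPM under high salt and 25.7 ± 4.83 CPM under normal salt (SD, n = 4 each). High-salt library 4 was again highest and high-salt library 3 next, and normal-salt library 2 was the highest of its diet in both genes. The log2 fold change of Nfkbia was 0.75 (SE 0.31, limma unadjusted p = 0.0343, adjusted p = 0.438) and that of Tnfaip3 was 0.64 (SE 0.26, unadjusted p = 0.034, adjusted p = 0.438). Without high-salt library 4 they were 0.40 and 0.37 (unadjusted p = 0.057 and 0.0872, adjusted p = 0.736 and 0.789 with limma), and without normal-salt library 1 they were 0.75 and 0.63 (unadjusted p = 0.0548 and 0.0552, adjusted p = 0.381 and 0.382). Icam1, the adhesion molecule for leukocyte integrins, had 3.74, 7.15, 8.49 and 8.46 CPM under high salt and 6.54, 12.3, 5.56 and 5.14 CPM under normal salt (log2 fold change -0.06, SE 0.29, limma adjusted p = 0.967; -0.08 and adjusted p = 0.937 without normal-salt library 1). Its highest value was in normal-salt library 2, where Il1b was also highest.

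**Figure D4:**
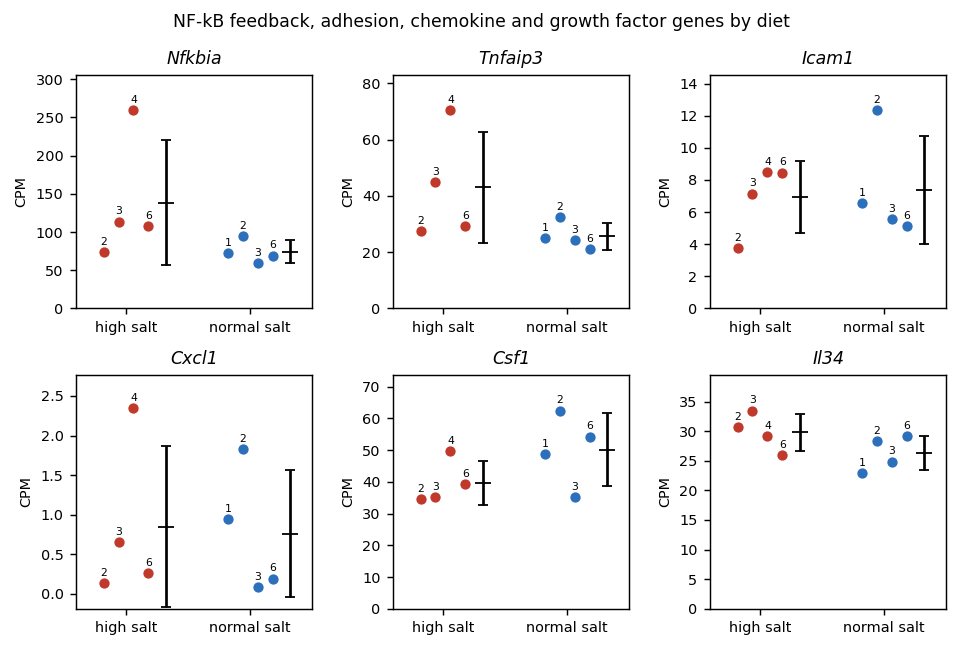
Level in CPM of Nfkbia, Tnfaip3, Icam1, Cxcl1, Csf1 and Il34 in each library (points, labelled by library number) under high and normal salt, with the mean and SD of the 4 libraries beside them. High-salt library 4 is highest for Nfkbia (259 CPM), Tnfaip3 (70.4 CPM) and Cxcl1 (2.35 CPM), and the diets overlap in all 6 panels.

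The wider NF-kB pathway was measured in 31 of 33 listed genes, of which 17 had a higher and 14 a lower mean log2 level. The median log2 fold change was 0.01 against 0.01 for all genes, and without normal-salt library 1 the split was 13 higher and 18 lower. Limma called 0 of them, and 3 of the 31 had an unadjusted p under 0.05, all higher. Of all genes 10.3% reached it in either direction, and 5.95% with a higher mean log2 level. Without normal-salt library 1, 2 reached it, Tnfrsf1a higher and Ikbkg lower, where 13.5% of all genes did. The diets did not overlap in 2 of the 31, Tnfrsf1a higher and Traf1 lower, where 6.4% of all genes did not overlap. Without normal-salt library 1 they did not overlap in 5 of the 31, where 12.5% of all genes did not. Tnfrsf1a, the main receptor for Tnf, had 62.6 ± 2.49 CPM under high salt and 52.8 ± 3.60 CPM under normal salt (SD, n = 4 each; log2 fold change 0.24, adjusted p = 0.338). Rel, the c-Rel subunit, had 4.71 ± 1.62 CPM under high salt and 2.94 ± 0.703 CPM under normal salt (0.52, adjusted p = 0.446), highest in high-salt library 4 at 7.10 CPM. Nfkb2, the p100 precursor subunit, had 62.1 ± 10.8 CPM under high salt and 47.3 ± 14.4 CPM under normal salt (0.41, adjusted p = 0.483), also highest in high-salt library 4. Traf1, a target and adaptor of the pathway, had 0.872 ± 0.152 CPM under high salt and 1.41 ± 0.406 CPM under normal salt (-0.36, adjusted p = 0.569).

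Of 30 other cytokines and chemokines 11 were tested, 9 with a higher and 2 with a lower mean (median log2 fold change 0.19), and 0 were called. Ccl28, a mucosal chemokine of epithelia, had 3.40, 12.0, 4.61 and 6.69 CPM under high salt and 2.95, 1.86, 3.42 and 1.70 CPM under normal salt. High-salt library 2 lay just below the highest normal-salt library, and the log2 fold change was 1.05 (SE 0.31, limma unadjusted p = 0.00691, adjusted p = 0.234). Spp1, osteopontin, a phosphoprotein of tubule cells found in urine, had 254 ± 115 CPM under high salt and 162 ± 61.9 CPM under normal salt (SD, n = 4 each; limma adjusted p = 0.64). Il15, a growth factor of lymphocytes, had 5.57 ± 0.993 CPM under high salt and 7.18 ± 1.35 CPM under normal salt (adjusted p = 0.573), and Mif, macrophage migration inhibitory factor, had 203 ± 24.7 CPM under high salt and 172 ± 49.4 CPM under normal salt (adjusted p = 0.648). Mif was highest in normal-salt library 1 at 243 CPM, and without that library its log2 fold change was 0.45 (limma adjusted p = 0.127).

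In the inflammasome and interleukin 1 family 7 of 17 genes were tested, 4 with a higher and 3 with a lower mean log2 level, and 0 were called. Irak4, a kinase downstream of interleukin 1 and Toll-like receptors, had 81.4, 70.5, 79.6 and 51.2 CPM under high salt and 41.6, 49.4, 48.6 and 53.2 CPM under normal salt. High-salt library 6 overlapped the normal-salt values, and the log2 fold change was 0.52 (SE 0.15, limma unadjusted p = 0.00443, adjusted p = 0.212). Il1r1, the interleukin 1 receptor, had 57.1 ± 4.20 CPM under high salt and 68.7 ± 9.22 CPM under normal salt (SD, n = 4 each; -0.25, limma adjusted p = 0.452). Its accessory chain Il1rap had 16.9 ± 1.75 CPM under high salt and 14.9 ± 1.87 CPM under normal salt (adjusted p = 0.688), and Il18bp, which binds Il18, had 3.46 ± 0.440 CPM under high salt and 4.38 ± 1.37 CPM under normal salt (adjusted p = 0.742).

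Among 26 further genes of macrophages and phagocytes 5 were tested, 4 with a higher and 1 with a lower mean, and 0 were called. Sirpa, an inhibitory receptor of myeloid cells that other cell types also make, had 75.0, 76.1, 74.3 and 59.8 CPM under high salt and 41.9, 64.4, 58.0 and 47.7 CPM under normal salt (log2 fold change 0.43, SE 0.14, limma adjusted p = 0.29). Cd14, the co-receptor for lipopolysaccharide, had 8.42 ± 2.53 CPM under high salt and 6.54 ± 0.589 CPM under normal salt (SD, n = 4 each; adjusted p = 0.695). Mertk, a receptor for dying cells, had 2.59 ± 0.870 CPM under high salt and 2.12 ± 0.264 CPM under normal salt (adjusted p = 0.812). Ctss, a lysosomal protease of phagocytes, had 2.55 ± 0.489 CPM under high salt and 2.84 ± 1.63 CPM under normal salt (adjusted p = 0.975). Its highest value was 5.21 CPM in normal-salt library 1, whereas Sirpa was lowest there.

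In the marker lists of other cell types limma called 0 genes, and 0 had an unadjusted p under 0.05 over all 8 libraries. Of the fibroblast and pericyte markers 7 of 10 were tested, 5 with a higher and 2 with a lower mean log2 level (median log2 fold change 0.12). Without normal-salt library 1 the split was 6 higher and 1 lower (median 0.80). Col1a2 and Col3a1, both higher, then had a limma unadjusted p under 0.05 (0.0108 and 0.0346, adjusted p = 0.214 and 0.325). Of all genes 13.5% reached it in that fit. The collagen chain Col1a2 had 56.5 ± 27.8 CPM under high salt and 52.4 ± 57.9 CPM under normal salt (SD, n = 4 each; log2 fold change 0.49, or 1.12 without normal-salt library 1, limma adjusted p = 0.823 and 0.214). Col1a1, its partner chain, had 19.0 CPM under high salt and 21.1 CPM under normal salt, and the pericyte genes Pdgfrb and Rgs5 had 2.04 and 4.25 CPM under high salt and 1.93 and 3.95 CPM under normal salt, as means. Of the endothelial markers 8 of 9 were tested, 2 with a higher and 6 with a lower mean log2 level (median log2 fold change -0.10). Without normal-salt library 1 all 8 were lower (median -0.25). The 2 higher over all libraries were Pecam1 and Ehd3 (0.05 and 0.04). Emcn, a sialomucin of capillaries, had 12.7 ± 3.66 CPM under high salt and 15.8 ± 1.97 CPM under normal salt (SD, n = 4 each; limma adjusted p = 0.6). Egfl7, Plvap and Cdh5 had log2 fold changes of -0.23, -0.15 and -0.16 (limma adjusted p = 0.706, 0.786 and 0.826). All 7 thick ascending limb markers tested had a lower mean log2 level under high salt. Umod, the urinary protein uromodulin, had 46.5, 35.7, 248 and 1695 CPM under high salt and 1368, 537, 355 and 864 CPM under normal salt (log2 fold change -2.07, SE 1.01, limma adjusted p = 0.524). The high-salt libraries spanned a wider range than the normal-salt libraries and overlapped them. Slc12a1, the sodium, potassium and chloride cotransporter of that segment, Cldn10 and Ppp1r1b had log2 fold changes of -1.58, -1.43 and -1.07 (limma adjusted p = 0.551, 0.509 and 0.509). Cd79b, a chain of the B cell receptor and the 1 lymphocyte marker tested, had 4.01 ± 1.07 CPM under high salt and 3.10 ± 0.700 CPM under normal salt (SD, n = 4 each; limma adjusted p = 0.698). The part of these cells in the values of the 36 genes was not tested.

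**Figure D5:**
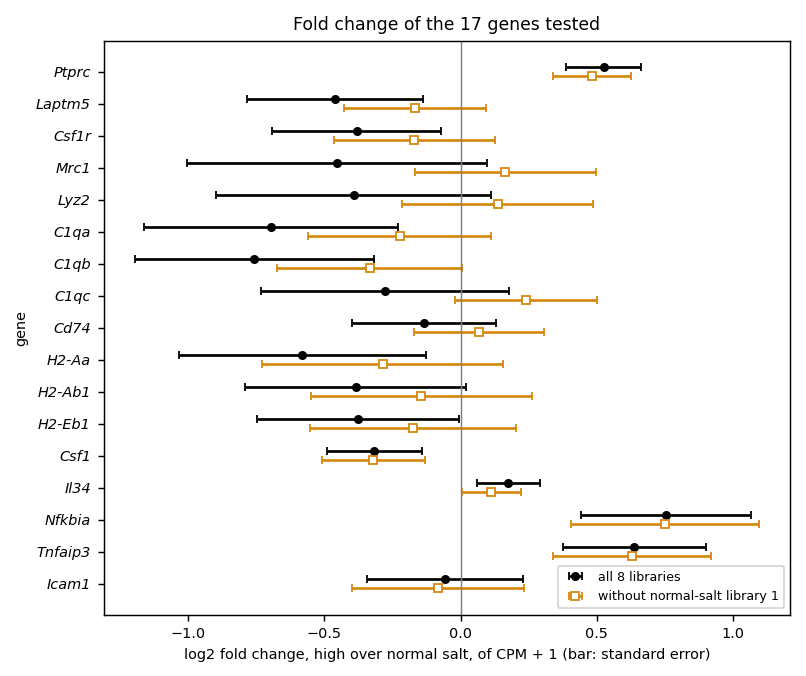
Log2 fold change of CPM + 1, high over normal salt, with its standard error for the 17 genes tested, over all 8 libraries (filled circles) and without normal-salt library 1 (open squares). The myeloid, C1q and MHC class II genes move toward or past 0 without that library (Mrc1 -0.45 and 0.16), though the 3 MHC class II chains moved further without high-salt library 3 (H2-Ab1 to -0.02), which is not plotted, whereas Ptprc (0.53 and 0.48), Nfkbia (0.75 in both) and Csf1 (-0.32 in both) stay in place.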

How the data were processed

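RNA of 8 libraries was sequenced by the authors after stranded mRNA library preparation, per the labels' protocols. FastQC, Trimmomatic and the build mm10 are named in the submitters' processing notes; no source used here gives the aligner, counting program, strand setting or annotation. The authors deposited CPM on a log2 scale with a shared floor of -5.29, and TPM. Column numbers did not match the sample titles, so columns were tied to a diet and not to a title.

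Because the design had been written for linear CPM, the log2 values were turned back to the linear scale, less the floor, and each library was rescaled to the CPM total. The most frequent value above 0 was taken as 1 count. From 85.2% to 86.1% of low values were then whole within 0.005 counts, so these are estimated counts and no count model was used. Values at 0 are as listed and may be failed estimates.

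Genes with at least 1 CPM in at least 4 libraries (13401) were compared on log2(CPM + 1), which understates changes of low genes, with limma 3.58.1 in R 4.3.3 (lmFit, eBayes with trend, two-sided, Benjamini-Hochberg over all genes). The fit was tested on simulated data. The members and gene lists were chosen with earlier results of these data known. Every member is accounted for. Values in each library were given to members with an unadjusted p under 0.05 or no overlap, the 2 most abundant per role and 16 set genes. Of each other list the called genes were named, or up to 4 with the smallest p. Positions came from GENCODE M21 and promoters from RefSeq on GRCm38.p6. Each library stands for 1 mouse.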

Additional observations from a re-analysis of the deposited data

Results flagged for a closer look

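In 49 groups of 4 libraries (a gene within a diet, with at least 1 CPM in its highest library), 10 had a library far from the other 3, and all 10 were normal-salt library 1. Chance flags about 1 in 20 groups, but that rate does not apply here: the genes are not independent, and Coro1a, Adgre1, Cd68 and Ccr2 reached 1 CPM under normal salt through that library alone. In that library Lyz2 had 12.1 CPM, Mrc1 9.9 CPM, C1qb 6.66 CPM, C1qc 6.17 CPM and Cd74 30.4 CPM, each the highest of its diet. Laptm5 had 4.41 CPM there, Cd68 3.59 CPM, Adgre1 2.9 CPM, Coro1a 1.99 CPM and Ccr2 1.9 CPM. Fibroblast and pericyte markers summed to 302 CPM in the same library, and their part in these values was not tested.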

How the results depend on the processing

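No member and no listed pathway gene was called by limma in any of the 19 alternatives, the 8 single libraries left out among them, and Ptprc had the lowest adjusted p of 0.0984 with array quality weights (0.0984 to 0.449 over its alternatives, unadjusted p 0.00203 to 0.0184). Of the 17 members tested, 11 kept their direction in every alternative that gave a value. Over the libraries left out in turn the log2 fold change ranged from -0.768 to 0.163 for Mrc1, -0.676 to 0.135 for Lyz2, -0.564 to 0.241 for C1qc, -0.271 to 0.11 for Cd74 and -0.182 to 0.191 for Icam1. The first 4 turned without normal-salt library 1, Cd74 also without high-salt library 3, and Icam1 without high-salt library 2 or normal-salt library 2. Without high-salt library 3, Lyz2 had -0.085, C1qa -0.432 and C1qc -0.138, all nearer to 0. With array quality weights C1qc had 0.0637, Cd74 0.0645 and H2-Ab1 0.00477. With the column number as a replicate block over the 6 libraries with numbers 2, 3 and 6, Mrc1 had 0.248, Lyz2 0.138 and C1qc 0.147, the same as in these 6 libraries without a block, an alternative added after seeing the data. Normal-salt library 1 is not among the 6. The count over all genes was 11, and became 0 without a filter on low values (1933 at an unadjusted p under 0.05), 5 in TPM, 22 with robust moderation, 129 with array quality weights, 37 with the replicate block and 23 in the 6 libraries without it, and ranged from 0 to 50 over the libraries left out. It was 50 without normal-salt library 1, 5 without high-salt library 2, 1 without high-salt library 3 or normal-salt library 6, and 0 without high-salt library 4 or normal-salt library 3; the cause was not tested. Deviations of the libraries sharing number 2, 3 or 6 had correlations of 0.208, 0.287 and 0.002. For numbers 2 and 3 this was the highest correlation of that high-salt library with any normal-salt library. Seen from the other diet, normal-salt library 2 correlated better with high-salt library 4 (0.28) than with high-salt library 2 (0.208). High-salt library 6 instead correlated best with normal-salt library 1 (0.296). No label states a pairing, so the main fit was not paired, and whether shared numbers pair mice was not settled. Over the 6 libraries the block took limma's unadjusted p from 0.242 to 0.0495 for H2-Aa and from 0.0737 to 0.0951 for Nfkbia. The block changed no member's call. For the 19 members not tested, levels near the worth of a few counts limit any comparison.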
